A study of Mus musculus with 10 samples.

Results

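The genes described here encode the nuclear subunits of mitochondrial complex I, NADH:ubiquinone oxidoreductase, and the proteins that assemble it. Members were the protein-coding genes whose symbol starts with Nduf, without Ndufa4l2, a gene of the same name series that is not a complex I subunit. They numbered 45 of the 30074 genes in the table: 37 subunits (Ndufa, Ndufb, Ndufc, Ndufs and Ndufv) and 8 assembly factors (Ndufaf). RNA of whole hearts was sequenced from C57BL/6 male mice, wild type, 8 to 12 weeks old and about 25 g. All had received lipopolysaccharide (LPS), a bacterial endotoxin, into the peritoneum as a model of septic cardiomyopathy. The LPS+ART group (n = 5) also received 50 mg/kg artesunate, an antimalarial endoperoxide, by the same route 10 min before LPS and 4 h after it, and the LPS+Vehicle group (n = 5) received vehicle. Heart function was assessed 24 h after LPS, and the hour at which hearts were taken for RNA was not stated. Hearts without LPS were not analysed here.

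Complex I takes electrons from NADH in its matrix arm, passes them along iron-sulfur clusters to ubiquinone, and pumps protons through its membrane arm. The catalytic core is built from conserved subunits, some encoded in the nucleus and the rest by mitochondrial DNA, and is surrounded by accessory subunits that stabilise it. Assembly factors bind intermediates, modify or protect individual subunits and then leave, so they are not part of the finished enzyme; in the heart, the complex is among the main entry points of electrons into respiration.

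Levels are FPKM, read density scaled by exon length and library size, so they can be compared between genes only roughly. The exon length joins all annotated exons of a gene, used or not, and ran from 419 bases in Ndufa1 to 8086 in Ndufs1. Recovered library totals were 30684056 to 36679402 reads for LPS+ART hearts and 29980900 to 54222272 for LPS+Vehicle hearts. All 45 members passed the filter of a mean of 0.5 FPKM. As deposited, limma called 1565 of 13314 genes higher in LPS+ART (11.8%) and 7037 lower (52.9%), and the median log2 fold change of all genes was -0.27. The main counts of complex I genes are therefore also given after median-ratio scaling between libraries, which brought that median to 0.02, and after cyclic loess, which also removes the trend of fold change with expression level. LPS+Vehicle replicates 2 and 5 were nearly alike (chi-square per degree of freedom 1.68, against 12.4 to 43.5 in the other pairs within a group). The labels give groups of 5 but no animal numbers, so the p-values speak of the variation among these 10 libraries, which may be technical. LPS+ART replicates 3 and 4 were closer to each other (15.8) than either was to replicates 1, 2 and 5 (30.7 to 43.5), and counts that rest on them are given without them.

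The subunits were modestly higher in LPS+ART hearts or were not called. Of 37 subunits, 13 were called higher and 0 lower at an adjusted p under 0.05 (limma, Benjamini-Hochberg over all genes), a share of 35.1% against the 11.8% of all genes. The log2 fold changes ran from -0.05 to 0.47 with a median of 0.17, and 33 of 37 were above 0. The assembly factors divided otherwise: 4 of 8 were called lower and 0 higher, with log2 fold changes from -1.03 to 0.16 and a median of -0.20. Their 50% share of lower calls was close to the 52.9% of all genes. In bulk tissue, fewer cells of a type and less RNA per cell cannot be told apart.

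**Figure D1:**
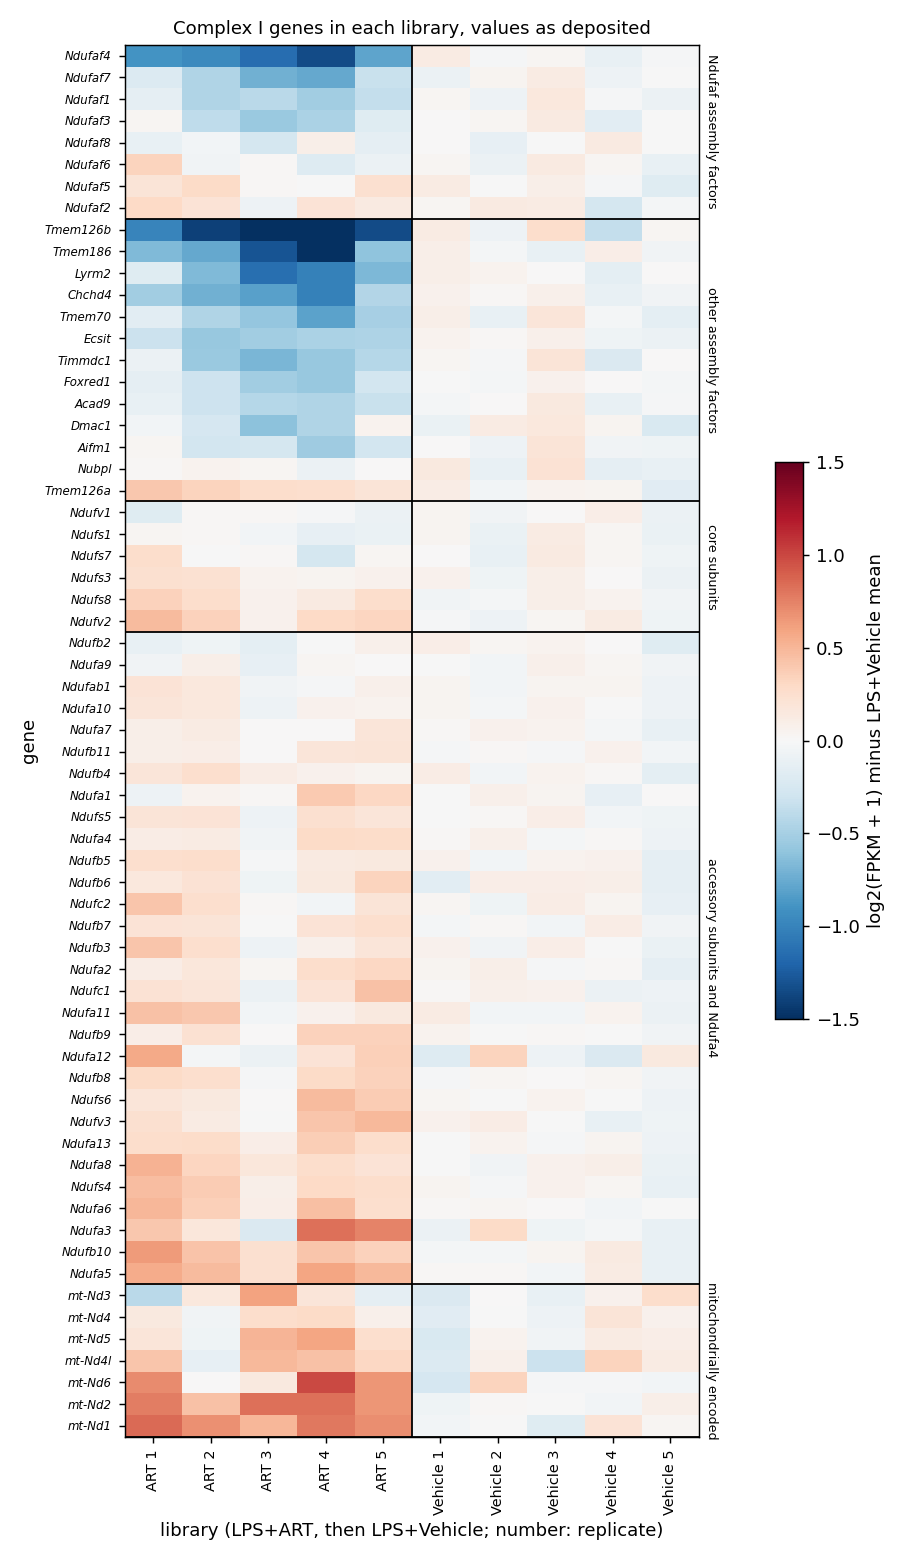
Levels of complex I genes in each library (columns, the 5 LPS+ART hearts left of the 5 LPS+Vehicle hearts) as log2(FPKM + 1) minus the LPS+Vehicle mean of that gene, blue for lower and red for higher, with rows grouped by role. Colours stop at 1.5, which 3 values exceed. Ndufaf4, Tmem126b and Tmem186 are blue in all 5 LPS+ART hearts, and Ndufa5 and Ndufb10 are red in all 5.

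The assembly factor Ndufaf4 was the member with the lowest fold change and the subunit Ndufa5 the member with the highest, and the sequences before their gene starts are shown because both held the same motif. Each is the 250 bases upstream of the start in RefSeq on GRCm38.p6, at chr4:24897833-24898082 (plus strand) for Ndufaf4 and chr6:24527691-24527940 (minus strand) for Ndufa5. Capitals mark the recognition element of NRF1, nuclear respiratory factor 1, which was searched with any base at its middle position.
Ndufaf4: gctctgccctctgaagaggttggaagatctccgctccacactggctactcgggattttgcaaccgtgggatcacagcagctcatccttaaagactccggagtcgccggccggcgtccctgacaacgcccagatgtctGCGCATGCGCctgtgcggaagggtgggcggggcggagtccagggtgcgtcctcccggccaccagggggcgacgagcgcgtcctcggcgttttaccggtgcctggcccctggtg
Ndufa5: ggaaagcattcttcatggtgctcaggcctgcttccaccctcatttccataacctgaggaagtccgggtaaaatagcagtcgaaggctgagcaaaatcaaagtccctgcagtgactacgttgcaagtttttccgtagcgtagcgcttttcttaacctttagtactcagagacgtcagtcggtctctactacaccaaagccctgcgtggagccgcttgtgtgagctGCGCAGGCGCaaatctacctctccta
All motifs were read on both strands, and none contains another. The NRF1 element lay in 6 of 33 subunit promoters (18.2%) and 1 of 7 assembly factor promoters (14.3%), against 3.87% of all 27025 promoters. They began 113 bases before the start in Ndufaf4 and 26 bases before it in Ndufa5, so the motif occurred in the members furthest apart in fold change. The oestrogen-related receptor letters AAGGTCA lay in 3 of 33 subunit promoters and 0 of 7 assembly factor promoters, against 4.04% of all. The ETS letters CCGGAAG lay in 3 and 2, against 7.07% of all, and CCAAT in 10 and 4, against 34.5%. The YY1 letters AAGATGGCG were found in 0 member promoters and 0.592% of all. None of the 5 motifs was found in 16 subunit and 2 assembly factor promoters, and 5 members had no promoter in the table. A match is a run of letters and not a measured binding site.

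Ndufaf4, which with Ndufaf3 helps join the early matrix arm to the membrane arm, was lower in every LPS+ART heart. It had 9.39, 8.99, 7.73, 6.65 and 10.1 FPKM in LPS+ART replicates 1 to 5, against 20, 18.1, 18.7, 16.9 and 18.1 FPKM in LPS+Vehicle replicates 1 to 5. The groups lay far apart, with the highest LPS+ART heart well under the lowest LPS+Vehicle heart. The mean fell to 8.58 ± 1.39 FPKM in LPS+ART, against 18.4 ± 1.11 FPKM in LPS+Vehicle (SD, n = 5 each), a 2.14-fold lower level (log2 fold change -1.03, SE 0.10, limma adjusted p = 1.16e-05). Ndufaf4 was also called lower after median-ratio scaling (log2 fold change -0.66, limma adjusted p = 3.8e-05) and after cyclic loess (-0.75, limma adjusted p = 2.4e-05).

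Ndufaf7, a protein methyltransferase of the mitochondrial matrix, was called lower as deposited. It had 5.69, 4.66, 3.67, 3.54 and 5.13 FPKM in the 5 LPS+ART hearts, against 6.27, 6.97, 7.41, 6.30 and 6.70 FPKM in the 5 LPS+Vehicle hearts. The ranges did not overlap, and LPS+ART replicates 3 and 4 were the lowest (log2 fold change -0.50, SE 0.11, limma adjusted p = 0.0021). Ndufaf1, a scaffold of the membrane-arm assembly complex known as MCIA, had 18.9, 15.1, 15.5, 14.2 and 16.0 FPKM in LPS+ART, against 21.4, 19.7, 23.4, 20.5 and 19.6 FPKM in LPS+Vehicle. Its groups did not overlap either (log2 fold change -0.37, SE 0.08, limma adjusted p = 0.00218). All LPS+ART values lay below those of LPS+Vehicle in 42.5% of all genes. Both calls were lost with scaling between libraries: after median-ratio scaling the log2 fold change of Ndufaf7 was -0.17 (limma adjusted p = 0.122) and that of Ndufaf1 was -0.00053 (limma adjusted p = 0.995). After cyclic loess the adjusted p values in limma were 0.195 for Ndufaf7 and 0.128 for Ndufaf1.

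Ndufaf3, the partner of Ndufaf4, had 5.44, 3.86, 3.30, 3.54 and 4.57 FPKM in LPS+ART, against 5.33, 5.46, 5.97, 4.67 and 5.30 FPKM in LPS+Vehicle. LPS+ART replicate 1 lay within the LPS+Vehicle range, and the call was narrow (log2 fold change -0.32, SE 0.11, limma adjusted p = 0.0252). It was lost after median-ratio scaling (0.0067), after cyclic loess (0.06), with no filter, without LPS+ART replicate 2, 3 or 4, or without LPS+Vehicle replicate 2 or 3.

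The other 4 assembly factors were not called as deposited. Ndufaf8, which binds and stabilises Ndufaf5, averaged 10.6 ± 1.03 FPKM in LPS+ART and 11.4 ± 0.818 FPKM in LPS+Vehicle (log2 fold change -0.09, limma adjusted p = 0.315). Ndufaf6, a factor needed early in building the membrane arm, averaged 5.99 ± 1.02 FPKM in LPS+ART and 5.93 ± 0.463 FPKM in LPS+Vehicle, and LPS+ART replicate 1 held its highest value, 7.71 FPKM. Ndufaf5, the hydroxylase that modifies an arginine of Ndufs7, averaged 7.84 ± 0.81 FPKM in LPS+ART and 6.97 ± 0.65 FPKM in LPS+Vehicle (log2 fold change 0.15, limma adjusted p = 0.146). Ndufaf2, a paralogue of the subunit Ndufa12 that holds its place until late assembly, averaged 3.08 ± 0.386 FPKM in LPS+ART and 2.67 ± 0.388 FPKM in LPS+Vehicle (log2 fold change 0.16, limma adjusted p = 0.175). Of the exon length of Ndufaf2, 65.7% overlaps an antisense gene, and the strand setting of the counting is not given in the sources used here. After median-ratio scaling all 4 were called higher and Ndufaf4 was called lower, where 29.9% of all genes were called higher and 30.3% lower. After cyclic loess Ndufaf2 (log2 fold change 0.56), Ndufaf5 (0.49) and Ndufaf6 (0.36) were called higher, where 29% of all genes were, and Ndufaf4 was the only Ndufaf gene called lower, where 28.7% were.

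**Figure D2:**
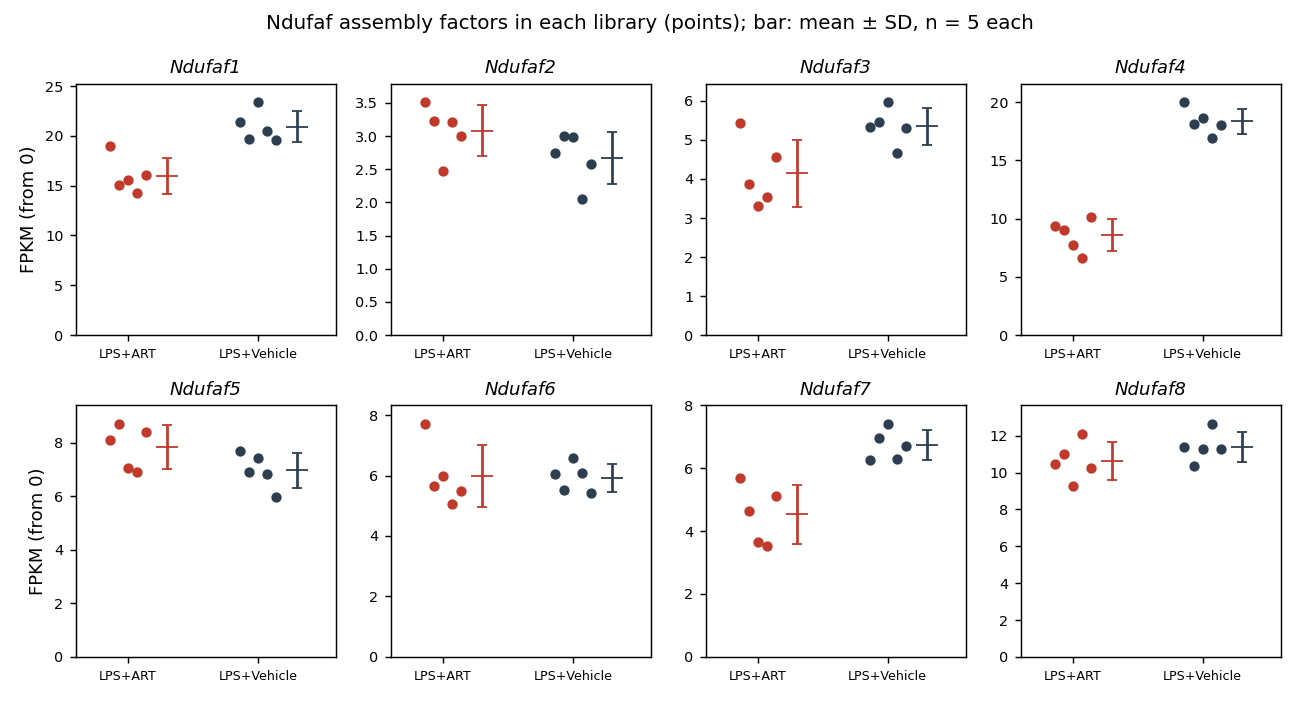
FPKM of the 8 Ndufaf genes in each library (points), LPS+ART left of LPS+Vehicle, with the mean and SD (n = 5 each) beside the points and each vertical axis starting at 0. In Ndufaf4, Ndufaf7 and Ndufaf1 the LPS+ART hearts lie below all LPS+Vehicle hearts, and in the other 5 genes the groups overlap.

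Ratios of genes within a library do not change when a library is multiplied by 1 factor, as in median-ratio and TMM scaling, but cyclic loess can change them; they are given here from the deposited values. Log2 ratios of an assembly factor and its partner or substrate were compared by exact two-sided permutation over libraries, where the smallest p possible is 0.00794, and adjusted over the 5 pairs computed. The pair that is not given is not reported here, so the 4 given do not show how many of the 5 passed. The ratio of Ndufaf4 to its partner Ndufaf3 was 1.73 to 2.34 in LPS+ART hearts, against 3.13 to 3.75 in LPS+Vehicle hearts, without overlap (exact permutation p = 0.00794, adjusted p = 0.0198). The ratio of Ndufaf5 to its substrate Ndufs7 overlapped, at 0.0973 to 0.126 in LPS+ART hearts, against 0.0905 to 0.11 in LPS+Vehicle hearts (exact permutation p = 0.111, adjusted p = 0.139). The ratio of Ndufaf8 to Ndufaf5 was 1.22 to 1.75 in LPS+ART hearts, against 1.49 to 1.89 in LPS+Vehicle hearts (exact permutation p = 0.0635, adjusted p = 0.106). The ratio of Ndufaf2 to Ndufa12 was 0.0402 to 0.0568 in LPS+ART hearts, against 0.0402 to 0.0546 in LPS+Vehicle hearts (exact permutation p = 0.984). A p above the threshold does not show that a ratio was the same in both groups.

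The 7 nuclear core subunits form the path of electrons from NADH to ubiquinone. Of these 7, 2 were called, both higher, where 11.8% of all genes were called higher. At the levels of the core subunits the share of all genes was 16.9% (20 to 100 FPKM) or 33.2% (higher). Ndufv2, which holds an iron-sulfur cluster beside the NADH site, had 185, 168, 139, 163 and 166 FPKM in LPS+ART, against 131, 126, 135, 144 and 126 FPKM in LPS+Vehicle. Only LPS+ART replicate 3 fell within the LPS+Vehicle range (log2 fold change 0.30, SE 0.08, limma adjusted p = 0.00668). Ndufs8, which carries clusters on the path to ubiquinone, averaged 87.8 ± 6.80 FPKM in LPS+ART and 75.4 ± 3.51 FPKM in LPS+Vehicle, and was also called higher (log2 fold change 0.21, limma adjusted p = 0.0189). Among those not called, Ndufv1, which binds NADH and the flavin, averaged 198 ± 11.8 FPKM in LPS+ART and 205 ± 10.9 FPKM in LPS+Vehicle (log2 fold change -0.05). Ndufs1, the large subunit with several clusters, averaged 58.9 ± 2.83 FPKM in LPS+ART and 60.8 ± 4.22 FPKM in LPS+Vehicle (-0.04). Ndufs7, which carries the last iron-sulfur cluster before ubiquinone, differed by 0.01 on the log2 scale and Ndufs3, an early building block of the matrix arm, by 0.12. The adjusted p values of these genes in limma ran from 0.14 for Ndufs3 to 0.946 for Ndufs7. The core median was 0.05, and 0.08 after cyclic loess. With cyclic loess Ndufv2, Ndufs8 and Ndufs3 were called higher, where 29% of all genes were.

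Accessory subunits held 11 of the 13 subunit calls, 11 of 29 measured (37.9%), with a median of 0.18, against 11.8% of all genes called higher. Among all genes at the levels of most subunits the share was 16.9% (20 to 100 FPKM) or 33.2% (higher). By position, 5 of 9 of the matrix arm (median 0.24) and 6 of 19 of the membrane arm (median 0.17) were called higher, and Ndufab1, the acyl carrier protein found in both arms, was not called (15.3 ± 1.27 FPKM in LPS+ART and 14.5 ± 0.58 FPKM in LPS+Vehicle). Ndufa5, of the matrix arm, had 169, 161, 136, 174 and 162 FPKM in LPS+ART, against 116, 116, 112, 126 and 107 FPKM in LPS+Vehicle. Every LPS+ART heart was above every LPS+Vehicle heart, by 1.39-fold in the means (log2 fold change 0.47, SE 0.08, limma adjusted p = 0.000336), and the difference was 0.47 after cyclic loess as well. Ndufb10, a disulfide-bonded subunit on the outer face of the membrane arm, had 282, 243, 214, 241 and 229 FPKM in LPS+ART, against 177, 176, 186, 197 and 167 FPKM in LPS+Vehicle. Its groups did not overlap (log2 fold change 0.41, SE 0.08, limma adjusted p = 0.000962).

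Ndufa6, a protein of the LYR family that docks an acyl carrier protein onto the matrix arm, averaged 67.4 ± 7.32 FPKM in LPS+ART and 53.1 ± 1.06 FPKM in LPS+Vehicle (log2 fold change 0.33, limma adjusted p = 0.00307). Ndufs4, a late-joining subunit of the matrix arm whose loss in mice and humans causes severe complex I deficiency, averaged 45.2 ± 4.38 FPKM in LPS+ART and 36.4 ± 1.78 FPKM in LPS+Vehicle (log2 fold change 0.30, limma adjusted p = 0.00522). Ndufa8 and Ndufa13, both of the membrane arm, averaged 200.1 ± 20.3 and 155 ± 10.2 FPKM in LPS+ART, against 162 ± 8.76 and 129 ± 4.87 FPKM in LPS+Vehicle. These 4 genes, Ndufa5 and Ndufb10 were the 6 subunits whose LPS+ART values all lay above those of LPS+Vehicle, which held for 7.54% of all genes. In 0 subunits did all LPS+ART values lie below, which held for 42.5% of all genes. The remaining called subunits, with overlapping ranges, were Ndufv3 (log2 fold change 0.25) and Ndufs6 (0.24) of the NADH end of the matrix arm, and Ndufb8 (0.23), Ndufb9 (0.21) and Ndufb7 (0.17) of the distal membrane arm. All 13 subunits called as deposited were also called higher after median-ratio scaling and after cyclic loess.

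Ndufa3, a small membrane-arm subunit, showed the widest spread among the highest members and was not called. It had 107, 90.3, 68.9, 143 and 136 FPKM in LPS+ART, against 75.7, 98.2, 76.7, 78.7 and 74.1 FPKM in LPS+Vehicle. LPS+ART replicate 3 was the lowest of all 10 hearts and replicate 4 the highest (log2 fold change 0.39, SE 0.18, limma adjusted p = 0.078). Ndufb2, another small membrane-arm subunit, was the lowest member by level and had a fold change just below 0, at 0.686 ± 0.104 FPKM in LPS+ART and 0.749 ± 0.128 FPKM in LPS+Vehicle (limma adjusted p = 0.562). Its level is uncertain, as it rests on 100 to 248 reads per library over an exon length of 5628 bases. Of that length, 7.94% overlaps other annotated genes. The highest member by level was Ndufa4, which keeps its complex I name but is now counted with complex IV, at 342 ± 32.9 FPKM in LPS+ART and 306 ± 12.0 FPKM in LPS+Vehicle (log2 fold change 0.15, limma adjusted p = 0.099). Exon overlap above 5% was present in 10 subunits, with 39.0% of Ndufb6 and 19.5% of Ndufb9 among them, and Ndufa13 overlapping an antisense gene. Among the 27 subunits without it, 11 were called higher and 0 lower. Several subunits also have processed pseudogenes, among which reads could be shared.

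**Figure D3:**
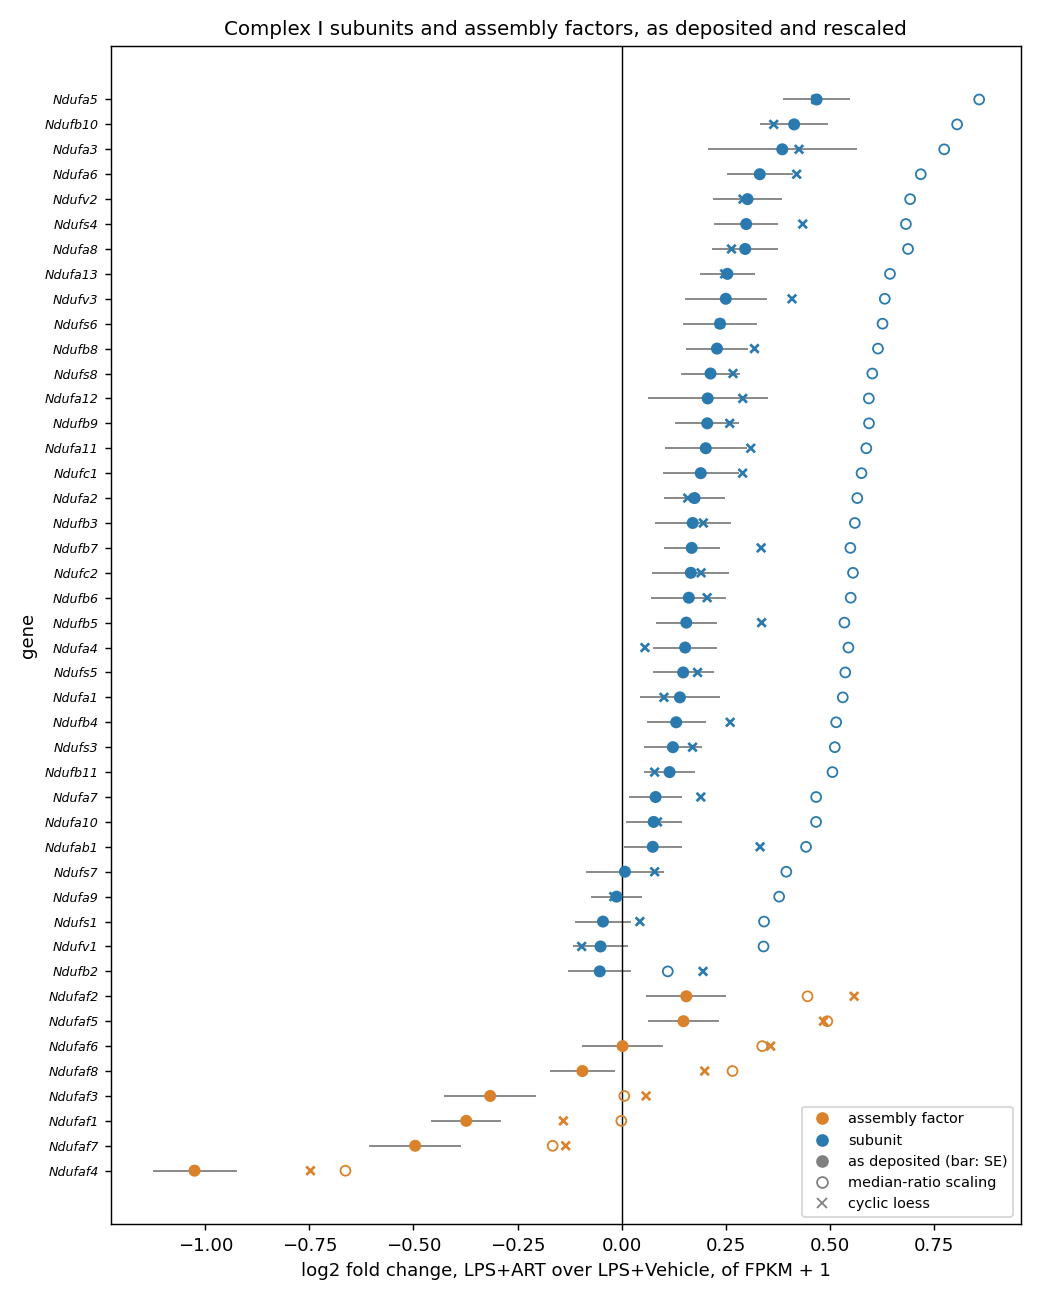
Log2 fold change of LPS+ART over LPS+Vehicle for 36 subunits (blue) and 8 assembly factors (orange), as deposited (filled circles with the SE), after median-ratio scaling (open circles) and after cyclic loess (crosses). Subunits cluster between -0.05 and 0.47 as deposited, and Ndufaf4 lies left of 0 under each scaling.

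The count of subunits called higher depended on the scaling and on the libraries used, LPS+ART replicate 3 among them. After median-ratio scaling 36 of 37 were called higher (29.9% of all genes were), with Ndufb2 the exception, and after cyclic loess 25 were called higher and 0 lower (29% of all genes were higher and 28.7% lower). At the levels of most subunits, median-ratio scaling called more of all genes higher, 52% at 20 to 100 FPKM and 77% above 100 FPKM. Cyclic loess called 26.3% and 24.6% of these genes higher. The median log2 fold change of subunits was 0.56 after median-ratio scaling and 0.25 after cyclic loess. With median-ratio scaling, subunits at 20 to 100 FPKM had a median of 0.58, against 0.25 for all genes there. Above 100 FPKM the medians were close, 0.56 for subunits and 0.52 for all genes. Replicate 3 had the lowest summed subunit level of the LPS+ART hearts, 3802 FPKM, against 4271 to 4374 FPKM in the other 4. Without it 22 subunits were called higher as deposited, against 13 with all libraries, and without replicates 3 and 4 together 23 were. The count fell to 9 without LPS+ART replicate 4, LPS+ART replicate 5 or LPS+Vehicle replicate 5. With the nearly alike LPS+Vehicle replicates 2 and 5 averaged it was also 9.

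Subunits and assembly factors differ in level, and fold change followed level across all genes. Mean levels over the 10 libraries ran from 0.717 to 324 FPKM in subunits (median 89.2) and from 2.88 to 18.4 FPKM in assembly factors (median 6.68). The median log2 fold change of all genes was -0.35 for levels of 1 to 5 FPKM and -0.31 for 5 to 20 FPKM. It was -0.14 for 20 to 100 FPKM and 0.13 beyond that. The 19 subunits at 20 to 100 FPKM had a median of 0.19, where 16.9% of genes were called higher, and the 16 subunits above 100 FPKM a median of 0.17, where 33.2% were. The 6 assembly factors at 5 to 20 FPKM had a median of -0.23. How much of the difference between the classes came with level was not tested beyond the cyclic loess values, where the subunit median lay 0.12 above that of the assembly factors, against 0.37 as deposited.

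**Figure D4:**
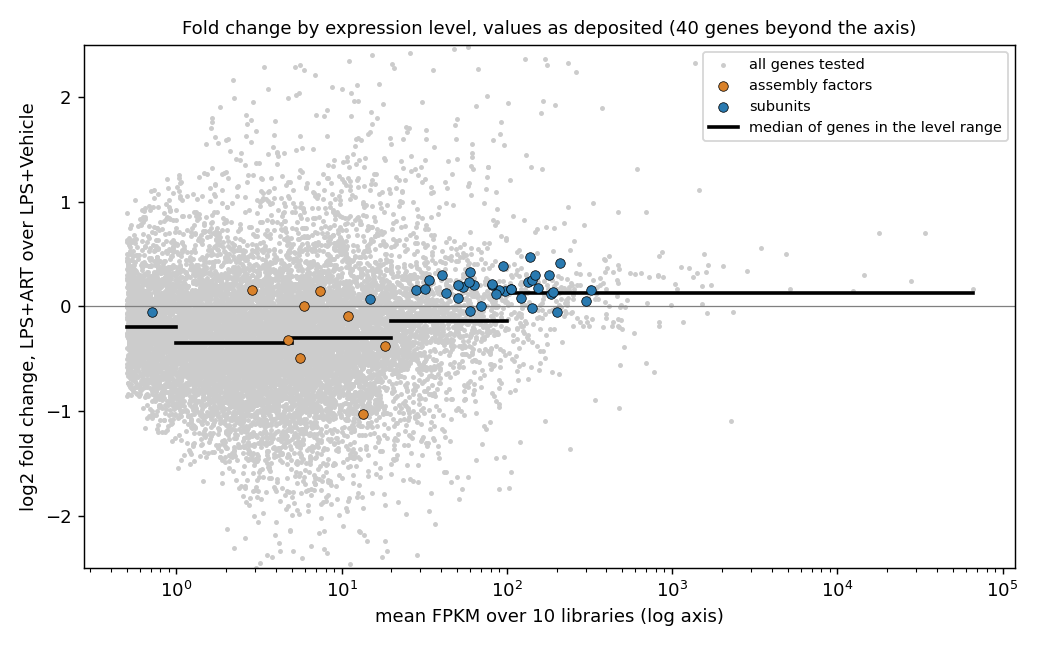
Log2 fold change of LPS+ART over LPS+Vehicle against mean FPKM (log axis) for all 13314 genes (grey), the subunits (blue) and the assembly factors (orange), with black bars for the median of all genes in each level range; 40 genes lie beyond the vertical axis at 2.5. Most subunits sit above 20 FPKM and above the bars, and the assembly factors sit below 20 FPKM.

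Library by library, the gap between the classes did not overlap between groups. The mean log2(FPKM + 1) of the subunits minus that of the assembly factors was 3.35, 3.47, 3.45, 3.62 and 3.46 in LPS+ART replicates 1 to 5, against 3.02, 3.07, 2.99, 3.12 and 3.02 in LPS+Vehicle replicates 1 to 5. The gap averaged 3.47 ± 0.10 over the LPS+ART hearts and 3.05 ± 0.05 over the LPS+Vehicle hearts (SD, n = 5 each). The summed FPKM of subunits was 63.0 to 79.2 times that of assembly factors in LPS+ART hearts and 45.6 to 49.9 times in LPS+Vehicle hearts. Summed subunits ranged from 3802 to 4374 FPKM in LPS+ART and from 3533 to 3817 FPKM in LPS+Vehicle, which overlap. Summed assembly factors ranged from 55.0 to 69.3 FPKM in LPS+ART and from 75.0 to 83.7 FPKM in LPS+Vehicle, which do not. The mean log2(FPKM + 1) of all genes tested did not overlap either, at 2.37 to 2.51 in LPS+ART hearts and 2.66 to 2.74 in LPS+Vehicle hearts. It averaged 2.45 in LPS+ART and 2.72 in LPS+Vehicle. For the assembly factors the averages were 2.95 and 3.20, a fall of similar size. Core minus accessory subunits overlapped, at 0.55 to 0.81 among LPS+ART hearts and 0.67 to 0.82 among LPS+Vehicle hearts on the log2 scale. These class values are descriptions and carry no test.

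**Figure D5:**
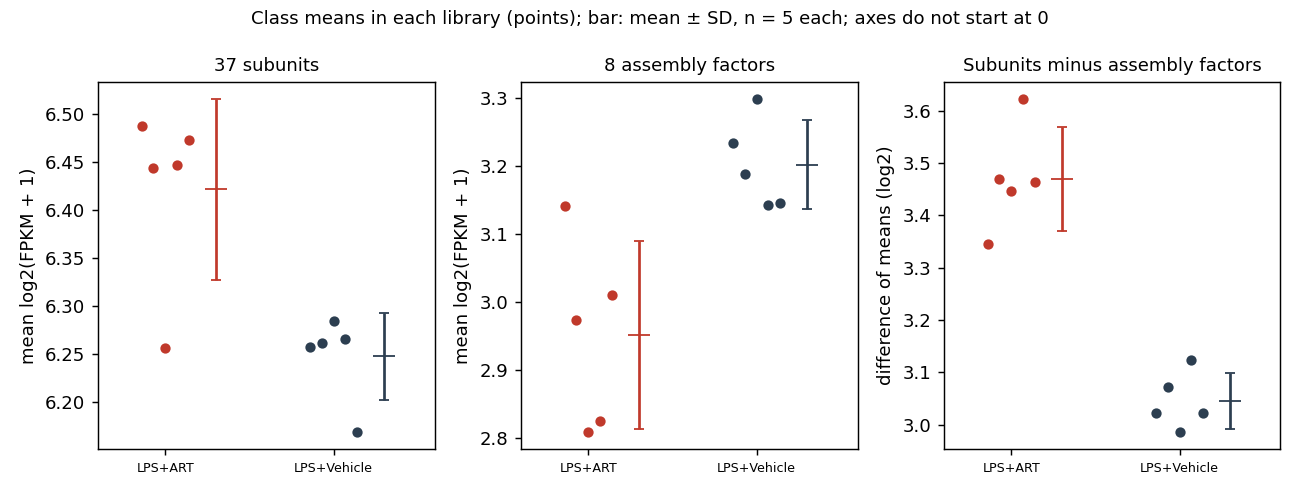
Mean log2(FPKM + 1) of the 37 subunits (left) and the 8 assembly factors (middle), and the difference between them (right), in each library (points), LPS+ART left of LPS+Vehicle, with the mean and SD (n = 5 each); axes do not start at 0. The difference is 3.35 to 3.62 among LPS+ART hearts and 2.99 to 3.12 among LPS+Vehicle hearts.

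Complex I also needs assembly factors without the Nduf name, of which 13 were in the table. As deposited 10 were called lower and 1 higher, 76.9% lower against 52.9% of all genes, with a median of -0.47. Tmem126b, a membrane protein of the MCIA complex, had 2.29, 1.46, 1.09, 0.957 and 1.57 FPKM in LPS+ART, against 6.13, 5.19, 6.85, 4.10 and 5.67 FPKM in LPS+Vehicle. It was 3.79-fold lower by the means, without overlap (log2 fold change -1.42, SE 0.15, limma adjusted p = 1.63e-05). Tmem186, which works with the same complex, averaged 4.83 ± 1.57 FPKM in LPS+ART and 10.1 ± 0.707 FPKM in LPS+Vehicle (log2 fold change -0.98). Ecsit, Acad9 and Timmdc1, which act with Ndufaf1 in building the membrane arm, had log2 fold changes of -0.47, -0.33 and -0.47. Lyrm2 fell by 0.73 on the log2 scale, Chchd4, the oxidoreductase that imports disulfide-bonded proteins, by 0.70 and Tmem70, an assembly factor best known for ATP synthase, by 0.50. Foxred1, an oxidoreductase-like factor, fell by 0.36 and Aifm1, the partner of Chchd4, by 0.26. Tmem126a, a homologue of Tmem126b, was the factor called higher, at 17.5 ± 1.06 FPKM in LPS+ART and 14.1 ± 1.13 FPKM in LPS+Vehicle, so the paralogues were called in opposite directions. Dmac1 and Nubpl, a factor for iron-sulfur delivery, were not called. After median-ratio scaling 4 of 13 were lower (Tmem126b, Tmem186, Chchd4 and Lyrm2) and 2 higher (Tmem126a and Nubpl). There 30.3% of all genes were lower and 29.9% higher, so the count of lower calls was close to the share of all genes. After cyclic loess Ecsit and Tmem70 joined the lower ones, 6 of 13 in all, and 2 were higher, where 28.7% of all genes were lower and 29% higher.

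The subunits encoded by mitochondrial DNA were 3 of 7 called higher (42.9%) and 0 lower, where 11.8% of all genes were called higher and 52.9% lower. mt-Nd1, which meets the matrix arm at the ubiquinone channel, had 46330, 41600, 36380, 44750 and 41750 FPKM in the 5 LPS+ART hearts, against 25040, 25670, 22660, 29780 and 26330 FPKM in the 5 LPS+Vehicle hearts. The groups did not overlap. It averaged 42160 ± 3808 FPKM in LPS+ART and 25900 ± 2577 FPKM in LPS+Vehicle (log2 fold change 0.70, limma adjusted p = 5.82e-05). mt-Nd2, a proton-pumping subunit, differed by 0.70 and mt-Nd6 by 0.50, while mt-Nd3, mt-Nd4, mt-Nd4l and mt-Nd5 differed by 0.08 to 0.31 and were not called. After cyclic loess only mt-Nd2 was called higher (log2 fold change 0.25) and mt-Nd4 was called lower (-0.28), where 29% of all genes were higher and 28.7% lower. After median-ratio scaling 6 of 7 were higher, where 29.9% of all genes were. As deposited, without scaling, the count rose from 3 to 5 when LPS+ART replicate 2 was left out. Mitochondrially encoded genes are few and very abundant, and took 47.3% to 53.9% of the summed FPKM in LPS+ART hearts, against 43.4% to 46.6% in LPS+Vehicle hearts.

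The rest of the respiratory chain was counted in the same way, against all-gene shares of 11.8% higher and 52.9% lower as deposited and 29% and 28.7% after cyclic loess. Of 41 nuclear subunits of complexes II to V, 17 were called higher (41.5%) and 2 lower (Cox6a1 and Cox8a), with a median of 0.18. After cyclic loess 12 were higher, 29.3% and so close to the share of all genes, and 3 were lower (7.32%). Of their 31 assembly factors 0 were called higher and 23 lower (74.2%), with a median of -0.53, and 4 were higher and 13 lower (41.9%) after cyclic loess. Cox10, which acts in a step of making the heme of complex IV, averaged 7.27 ± 1.00 FPKM in LPS+ART and 16.7 ± 1.27 FPKM in LPS+Vehicle. Coa7, a cytochrome oxidase assembly factor, averaged 1.42 ± 0.349 FPKM in LPS+ART and 4.67 ± 0.501 FPKM in LPS+Vehicle. Iron-sulfur cluster genes, which supply the clusters of complex I, had 2 of 18 called higher (11.1%) and 8 called lower (44.4%), near the shares of all genes. With cyclic loess 6 were higher (33.3%) and 0 lower. Of 13 genes of ubiquinone synthesis 2 were higher (15.4%) and 6 lower (46.2%), also near the shares of all genes, but 5 and 2 after cyclic loess. Coq3, a methyltransferase of that pathway, fell by 1.36 on the log2 scale.

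Regulators of respiratory genes had 4 of 16 called higher (25%, against 11.8% of all genes) and 9 called lower (56.2%, close to the 52.9% of all genes). With cyclic loess 7 were higher (43.8%) and 6 lower (37.5%), against 29% and 28.7% of all genes. Ppargc1a and Ppargc1b, the PGC-1 coactivators, fell by 1.68 and 1.22 on the log2 scale, and their partner receptors Esrra, Esrrb and Esrrg by 0.82, 0.81 and 1.20. Pprc1, a related coactivator, was higher, at 10.6 ± 1.86 FPKM in LPS+ART and 4.75 ± 1.29 FPKM in LPS+Vehicle. Nrf1, whose motif is shown in the promoters above, averaged 1.83 ± 0.0567 FPKM in LPS+ART and 1.39 ± 0.183 FPKM in LPS+Vehicle (log2 fold change 0.25, limma adjusted p = 0.00735). Gabpb1, a subunit of the ETS factor NRF2/GABP, was higher by 0.59. Gabpa, its DNA-binding partner, was not called as deposited (0.0019, limma adjusted p = 0.986). Gabpa was called higher after median-ratio scaling (0.36, limma adjusted p = 0.012) and after cyclic loess (0.30, limma adjusted p = 0.0285). Among the matrix proteases that clear complex I subunits, Lonp1 and Clpp were lower by a log2 fold change of -0.23 and -0.22. Both calls were lost after cyclic loess. Clpx was not called as deposited. It was called higher after median-ratio scaling (0.60, limma adjusted p = 0.0022) and after cyclic loess (0.37, limma adjusted p = 0.0247). Dnajc15, an inhibitor of respiratory-chain activity also known as MCJ, was higher by 0.21.

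Levels of cell type markers also differed between the groups, and their part in the complex I values was not tested. The counts below are as deposited, where 11.8% of all genes were called higher and 52.9% lower. Summed cardiomyocyte markers were 10210 to 12430 FPKM in LPS+ART and 8553 to 9268 FPKM in LPS+Vehicle, with 5 of 10 called higher (Actc1 most) and 3 lower (Pln, Nkx2-5 and Tnnt2). After cyclic loess Myh6 was called lower as well (log2 fold change -0.33, limma adjusted p = 0.00631). Mb, called higher as deposited, was then not called (0.04, limma adjusted p = 0.563). Summed macrophage markers were 20.2 to 39.8 FPKM in LPS+ART and 72.9 to 127 FPKM in LPS+Vehicle, with 6 of 6 called lower. Of the fibroblast markers 4 of 7 were lower (132 to 168 FPKM in LPS+ART and 154 to 286 FPKM in LPS+Vehicle), of mural markers 4 of 5 tested (120 to 173 FPKM in LPS+ART and 181 to 244 FPKM in LPS+Vehicle). Of the endothelial markers 1 of 7 was higher and 4 lower (226 to 362 FPKM in LPS+ART and 273 to 317 FPKM in LPS+Vehicle). The lower calls among fibroblast and endothelial markers, 4 of 7 each, were close to the share of all genes. After cyclic loess the lower calls of Kdr (endothelial), Pdgfrb (mural), and Csf3r and Mmp8 (neutrophil) were lost. Summed neutrophil markers were 29.3, 29.8, 232.5, 120.5 and 52.1 FPKM in LPS+ART replicates 1 to 5, against 29.1 to 68.7 FPKM in LPS+Vehicle. The high LPS+ART hearts were replicates 3 and 4, through S100a8 and S100a9, which were not called, while 2 of 6 markers were called lower. Of the erythroid markers 3 of 4 were higher (55.9 to 126.8 FPKM in LPS+ART and 19.5 to 65.5 FPKM in LPS+Vehicle). Of the atrial markers 0 of 4 were called, but they differed between libraries. Myl7, the atrial myosin light chain, was at 71.4 FPKM in LPS+ART replicate 5 and at most 0.11 FPKM in the other LPS+ART hearts. It was at 22.6 and 19.6 FPKM in LPS+Vehicle replicates 2 and 5 and at most 0.22 FPKM in the other LPS+Vehicle hearts. Lymphocyte markers summed to at most 0.609 FPKM in any heart, and of the adipose markers Cidea alone passed the filter, while Ucp1 was listed at 0 in all LPS+ART hearts.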

How the data were processed

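Polyadenylated RNA was sequenced from both ends, as the labels' protocols state. The authors' deposited table has no unit in its header. Its values are FPKM as judged from the values: 98.2% of matched genes gave whole reads (tolerance 0.01 read) in all 10 libraries with GENCODE M21 exon lengths, although the submitters' processing notes name the build mm9. Aligner, counter, annotation and strand setting: not given in the sources used here. Counting error alone puts a floor of 3 reads at 0.0553 to 0.100 FPKM for 1 kb of exon, depending on the library. Of recovered values of 1 to 4 reads, 60.8% to 69.5% were even, depending on the library. Both ends of a fragment may thus have been counted as separate reads, which was not tested. Independent fragments may then be fewer than the reads given. All columns of the table were used.

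Groups follow the treatment labels. The test was limma-trend (limma 3.58.1, R 4.3.3) on log2(FPKM + 1) with a filter on mean FPKM (0.5 or more), no term besides group, no scaling, Benjamini-Hochberg over 13314 genes, threshold 0.05. Fold changes on this scale understate low genes. The alternatives were median-ratio and TMM scaling, cyclic loess, pseudocounts of 0.1 and 0.5, no filter, a filter at 1, limma-voom on the recovered reads, a replicate block, averaging of LPS+Vehicle replicates 2 and 5, omission of LPS+ART replicates 3 and 4 together, and omission of every library by itself. Members, gene lists and tests were chosen with earlier results of these data known. Genes described in full were the assembly factors, the nuclear core subunits, the 5 highest and 5 lowest members and the mt-Nd genes; others were named for their role. 1 core subunit is not reported here by name. The count test on recovered reads, limma-voom, called 1526 genes higher and 6851 lower, with 13 subunits higher and 4 assembly factors lower. The fit was tested on simulated data with the spread of the LPS+Vehicle libraries. It recovered 18% of 1.25-fold changes, 62% of 1.5-fold, 86% of 2-fold and 96% of 4-fold changes. Changes of the size seen in most subunits can therefore be missed. Promoters came from RefSeq (GRCm38.p6), matched by symbol for 40 of 45 members. Figures used matplotlib 3.10.9.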

Additional observations from a re-analysis of the deposited data

Results flagged for a closer look

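In the group values of the members described in full (36 groups of 5 libraries), 1 library stood apart from the other 4 of its group, and chance flags about 5% of such groups. Ndufa3, a small membrane-arm subunit, had 98.2 FPKM in LPS+Vehicle replicate 2, while the other LPS+Vehicle hearts had 74.1 to 78.7 FPKM. The gap to the nearest heart was 0.81 of the whole range, above the critical value of 0.71. LPS+Vehicle replicate 5, which was otherwise nearly alike to replicate 2, had the lowest value of that group, 74.1 FPKM.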

How the results depend on the processing

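With alternative scaling the all-gene calls were 3975 higher and 4034 lower (median-ratio), 4060 and 3985 (TMM) and 3856 and 3827 (cyclic loess), against 1565 and 7037 as deposited. In the same order, subunits called higher were 36, 36 and 25, with medians of 0.56, 0.56 and 0.25. Assembly factors called higher were 4, 4 and 3 and lower 1, 1 and 1, and their median turned positive, at 0.14, 0.14 and 0.13. The difference of the class medians was 0.12 after cyclic loess. Assembly factors without the Nduf name were 2, 2 and 2 higher and 4, 4 and 6 lower. Mitochondrially encoded subunits were 6, 7 and 1 higher, with 1 lower after cyclic loess, and 1 was called higher with no filter. With LPS+ART replicates 3 and 4 left out, 23 subunits (median 0.22) and 1 assembly factor (Ndufaf5) were called higher, and the assembly factor median was -0.14. Leaving out 1 library at a time gave 1401 to 1564 genes higher and 6530 to 7062 lower, 9 to 22 subunits higher (median 0.14 to 0.21), 3 to 4 assembly factors lower (median -0.25 to -0.15), a difference of medians of 0.35 to 0.41, 2 to 5 mitochondrially encoded subunits higher and 9 to 10 other assembly factors lower. The cause of these shifts was not tested.

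Signs turned as follows. After median-ratio, TMM and cyclic loess scaling, Ndufaf8 was at 0.27, 0.27 and 0.20, Ndufaf3 at 0.0067, 0.013 and 0.059, and Ndufs1 at 0.34, 0.35 and 0.044. Ndufv1 was at 0.34 and 0.35 after median-ratio and TMM scaling, and Ndufaf1 at 0.0068 after TMM. After cyclic loess mt-Nd4 was at -0.28 and mt-Nd5 at -0.14. Ndufaf6 was at -0.0037 in limma-voom and Ndufaf6 and Ndufs7 at -0.021 and -0.013 with LPS+Vehicle replicates 2 and 5 averaged, and mt-Nd3 at -0.13 without LPS+ART replicates 3 and 4. Leaving out 1 library at a time gave -0.080 to 0.051 for Ndufaf6, -0.056 to 0.077 for Ndufs7 and -0.048 to 0.21 for mt-Nd3. Ndufaf4 stayed between -1.11 and -0.66 and called in all of these.

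The replicate numbers did not pair the libraries: same-numbered libraries correlated at 0.15, -0.07, 0.12, -0.02 and 0.18. With the replicate number as a block, 8 subunits were called higher, against 13 without it. Depth limits Ndufb2, under 1 FPKM, more than the other members. A missing call does not show that a subunit was at the same level in both groups.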

Other observations

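Ndufa4l2, left out of the members by the rule, was the Nduf gene with the lowest fold change in the table. It encodes a relative of Ndufa4 induced by hypoxia-inducible factor and is not a complex I subunit. It averaged 2.92 ± 1.076 FPKM in LPS+ART (1.87 to 4.48) and 12.0 ± 2.502 FPKM in LPS+Vehicle (8.16 to 14.7), without overlap (log2 fold change -1.75, limma adjusted p = 1.81e-05). Its relative Ndufa4 had a log2 fold change of 0.15. The row named Ndufb1-ps, annotated as noncoding, averaged 60.7 ± 13.0 FPKM in LPS+ART and 48.0 ± 5.44 FPKM in LPS+Vehicle (log2 fold change 0.31, limma adjusted p = 0.0675). The pseudogene rows Ndufab1-ps and Ndufs6b averaged 27.7 and 10.4 FPKM in LPS+ART and 23.3 and 6.88 FPKM in LPS+Vehicle, and neither was called. The pseudogene row Ndufab1-ps had a higher FPKM than the coding gene Ndufab1 (15.3 FPKM in LPS+ART and 14.5 FPKM in LPS+Vehicle). The FPKM of Ndufab1 is divided by a long exon length, 6883 bases, so this order does not show more pseudogene transcript. Reads could also be shared between these copies.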
